A study of Homo sapiens with 9 samples.

Results

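TAZ, encoded by WWTR1, was knocked down in LX2 cells and compared with cells that received a non-targeting siRNA. The members of this comparison were chosen by their sample labels, as 3 siTAZ and 3 siNT libraries, 6 of the 9 libraries of the series. The other 3 libraries (siYAP) came from cells given an siRNA against YAP, and are used here to show where TAZ knockdown differed from YAP knockdown. LX2 is a cell line made from human hepatic stellate cells, so all libraries derive from 1 line. All groups were grown in DMEM with 10% FBS, received 20 nM siRNA with Lipofectamine RNAiMAX and were collected at day 7, with the medium renewed every 3 days. The labels do not say what separated the replicates, so p-values measure the spread between these libraries, which may be technical. The sources used here do not give the siRNA sequence, and pairing of the siRNA with other transcripts was not analysed here.

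TAZ and its relative YAP are transcriptional coactivators held in check by the kinases of the Hippo pathway. When the kinases are inactive, both enter the nucleus and act mainly through TEAD DNA-binding proteins, which recognise a short element found at genes of cell growth, matrix and the cytoskeleton. Hepatic stellate cells store retinoids in healthy liver, and in fibrosis they become contractile myofibroblasts that secrete collagen, a change in which YAP and TAZ are known to take part.

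Counts in genes ranged from 17430129 to 18472696 in the siTAZ libraries and from 17480142 to 18114596 in the siNT libraries. Levels are given as CPM (counts put on 1 library size by TMM), and a gene is called where its adjusted p in edgeR's quasi-likelihood test was under 0.05. Log2 fold changes are siTAZ relative to siNT unless another pair is named. Of 15560 genes tested, 5391 were called (34.6%), 2559 higher (16.4%) and 2832 lower (18.2%), and the median log2 fold change over all tested genes was 0.01. Against the same siNT libraries 67.1% of genes were called after siYAP, and 66.2% were called between siTAZ and siYAP. In 44.6% of tested genes every siTAZ library lay above, or every one below, all siNT libraries. Most called changes were small, since 187 genes rose (1.2%) and 275 fell (1.77%) by more than 2-fold. Stellate lines carry no hepatocyte programme, and ALB, APOA2, APOC3, TTR and FGA were at 0 in all 6 libraries, with the 13 listed hepatocyte genes summing to 2.07 to 2.49 CPM after siNT and 1.30 to 2.31 after siTAZ. The 12 endothelial markers summed to 14.4 to 18.0 CPM after siNT and 10.4 to 10.9 after siTAZ, with LYVE1 and CLEC4G at 0. The 12 leukocyte markers summed to 34.9 to 38.4 CPM after siNT and 23.7 to 25.3 after siTAZ, with CD3E at 0 and CD68 the most abundant. The 10 cholangiocyte and epithelial markers, led by the keratin KRT18, summed to 678 to 689 CPM after siNT and 550.1 to 634 after siTAZ. As all libraries derive from 1 line, these sums do not show that such cell types were present. The part of these markers in the results was not tested. In RNA from whole cultures, fewer cells expressing a marker and less RNA per cell cannot be told apart.

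**Figure D1:**
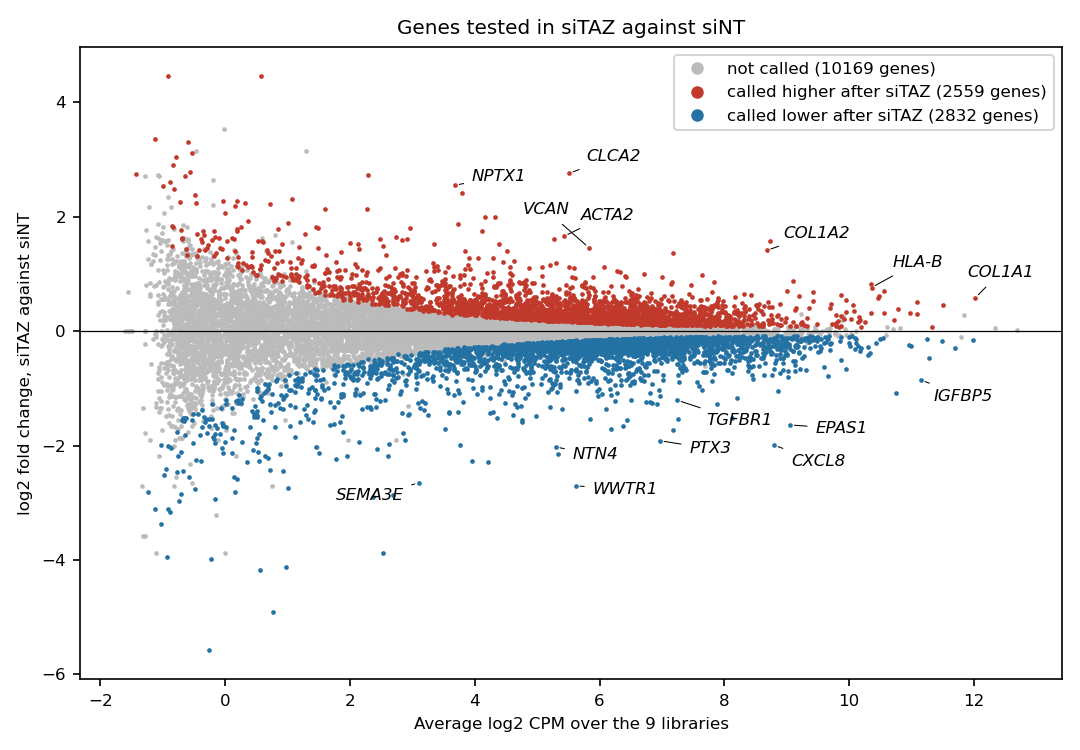
Each point is 1 of the 15560 genes tested, with its average log2 CPM over the 9 libraries on the x axis and its log2 fold change of siTAZ against siNT on the y axis; red points were called higher (2559) and blue points lower (2832). WWTR1 stands at -2.70, COL1A2 at 1.42 and COL1A1, near the right edge, at 0.59.

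The target itself was measured first. WWTR1 (ENSG00000018408, chr3:149517235-149736714, minus strand, GENCODE 29 on GRCh38) stood at 66.1, 64.1 and 55.8 CPM in the siNT libraries and at 8.61, 9.56 and 10.4 CPM in the siTAZ libraries. The groups did not overlap, and the level was 6.51-fold lower after siTAZ (log2 -2.70, SE 0.08; edgeR, adjusted p = 3.99e-37). Exons of WWTR1 overlap those of WWTR1-AS1 over 9.4% of their bases, and reads from the overlap cannot be assigned without the strand setting, which the sources used here do not give. After siYAP, WWTR1 was higher than after siNT by 0.29 on the log2 scale. YAP1, the sister coactivator, fell modestly from 212, 212 and 205 CPM to 176, 161 and 173 CPM (log2 -0.30; edgeR, adjusted p = 2.42e-08), where siYAP lowered it by 2.99.

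The DNA-binding partners and cofactors of TAZ also shifted. Of the 9 tested factors (YAP1, WWTR1, 4 TEADs and 3 VGLL cofactors), 7 fell and 2 rose. Among the TEAD proteins, which carry YAP and TAZ to DNA, TEAD2 fell by 0.51 on the log2 scale, TEAD4 by 0.30 and TEAD1 by 0.15, whereas TEAD3 rose by 0.37. For TEAD4 and TEAD3 the difference between siTAZ and siYAP was not called (log2 -0.01, SE 0.06, and -0.07, SE 0.05; edgeR, adjusted p = 0.939 and 0.287). The VGLL proteins compete with YAP and TAZ for TEADs. VGLL2 fell from 6.25, 7.02 and 6.40 CPM to 1.41, 1.58 and 1.5, VGLL3 fell by 0.48 on the log2 scale, and VGLL4 rose by 0.34. VGLL4, and below TGFB2, WWC2, VIM, IL6, SMC4 and MCM2, share 22.9% to 26.6% of their exon bases with a neighbouring gene, and their counts are uncertain for the same reason as those of WWTR1.

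**Figure D2:**
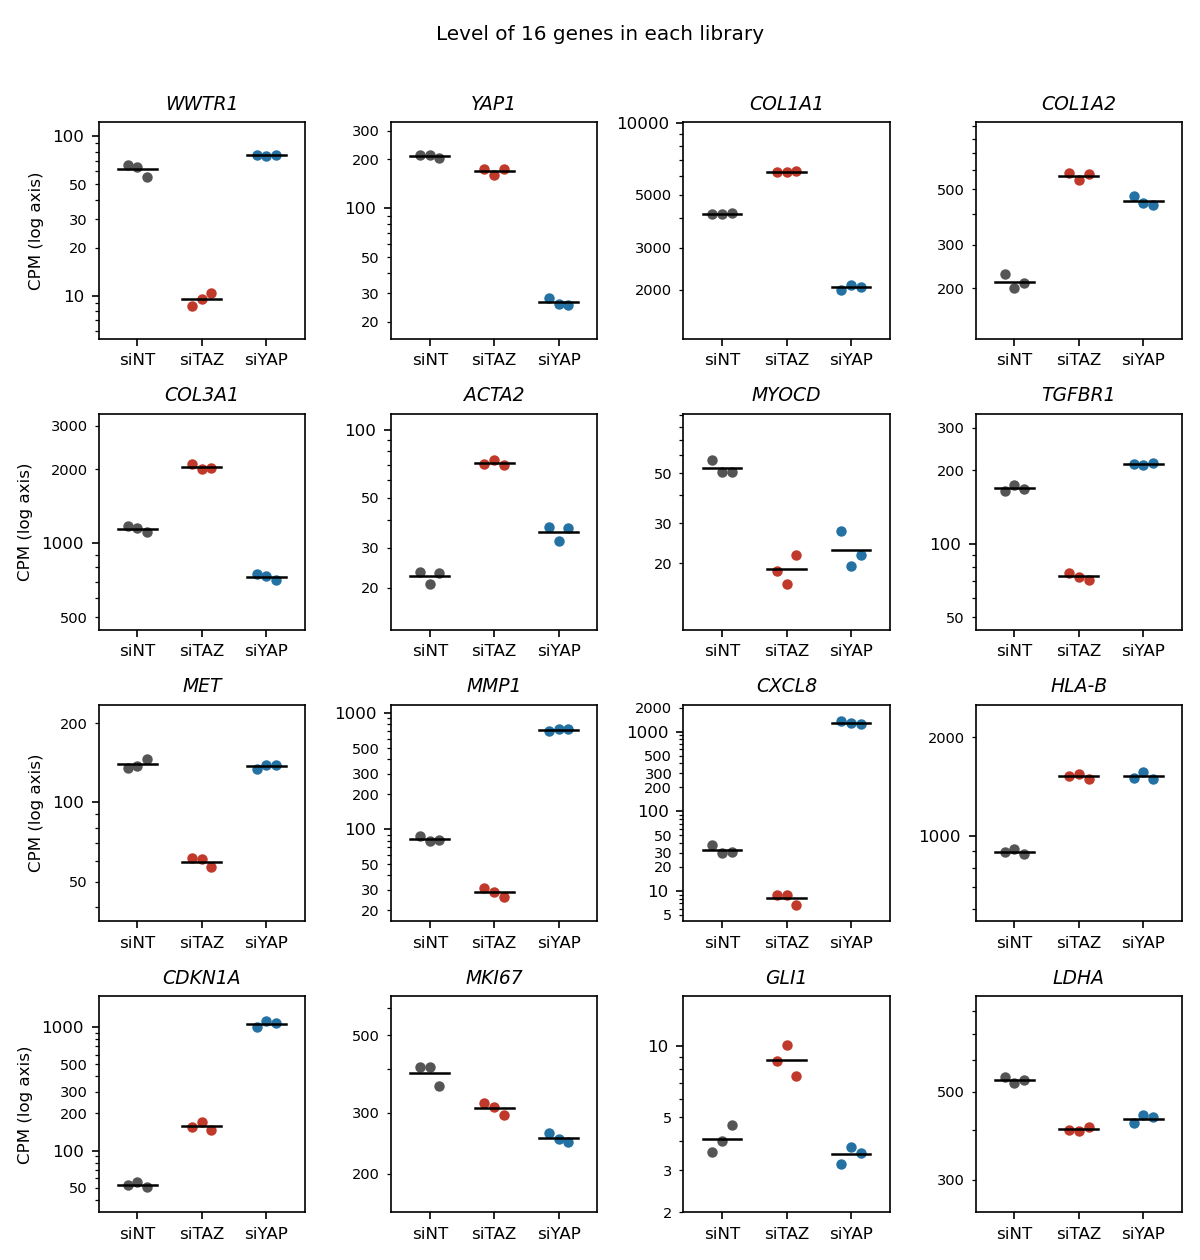
Levels of 16 genes in each library, in CPM on log axes that differ between panels, for siNT (grey), siTAZ (red) and siYAP (blue); points are libraries and lines are group means. The siTAZ and siNT points are apart in all 16 panels, and YAP1, COL1A1, COL3A1, TGFBR1, MMP1 and CXCL8 stand on different sides of siNT, or at different distances from it, after siTAZ and siYAP.

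YAP/TAZ target genes fell in part. In a 22-gene target signature, 11 genes fell, 1 rose and 10 were not called, with a median log2 fold change of -0.11 against 0.01 over all tested genes. The rise became 2 without siNT2 or siYAP1. ANKRD1, a titin-associated repressor of transcription and a standard YAP/TAZ readout, stood at 165, 167 and 182 CPM after siNT and 94.6, 103 and 94.8 after siTAZ (log2 -0.81, SE 0.05; edgeR, adjusted p = 6.97e-22). F3, the tissue factor that starts coagulation, fell by 0.63 on the log2 scale, TGFB2 by 0.48, the matrix protein CCDC80 by 0.44 and the phosphatase PTPN14, itself a brake on YAP, by 0.34. CCN1, a secreted matricellular protein, fell by 0.14, and the receptor kinase AXL by 0.21. CCN2, the other matricellular target most often used as a readout, stood at 374, 382 and 399 CPM after siNT and 350, 383 and 405 after siTAZ. These ranges overlapped and CCN2 was not called (log2 -0.02, SE 0.04; edgeR, adjusted p = 0.744). The same gene was lower by 2.46 after siYAP, and the difference between the knockdowns was called (siTAZ against siYAP, log2 2.44, SE 0.05; edgeR, adjusted p = 1e-31). ARHGEF17, a guanine nucleotide exchange factor, rose by 0.33.

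The promoters of ANKRD1 and CCN2 show how 1 element accompanied different readings. Each line gives the 250 bases before the RefSeq start on GRCh38.p14, read in the direction of the gene, with GGAATG, the core of the TEAD element, in capitals. The windows are chr10:90921088-90921337 (ANKRD1, minus strand) and chr6:131951373-131951622 (CCN2, minus strand).
ANKRD1: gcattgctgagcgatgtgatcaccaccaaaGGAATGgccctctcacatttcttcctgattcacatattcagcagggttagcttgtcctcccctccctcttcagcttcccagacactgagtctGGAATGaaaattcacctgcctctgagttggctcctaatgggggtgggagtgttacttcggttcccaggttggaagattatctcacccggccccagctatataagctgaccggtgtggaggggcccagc
CCN2: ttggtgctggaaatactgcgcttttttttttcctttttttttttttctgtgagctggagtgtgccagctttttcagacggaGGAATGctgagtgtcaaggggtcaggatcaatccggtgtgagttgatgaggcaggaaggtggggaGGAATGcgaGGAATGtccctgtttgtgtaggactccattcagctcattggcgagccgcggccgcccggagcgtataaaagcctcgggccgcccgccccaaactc
ANKRD1 holds the element at 220 to 215 and at 128 to 123 bases before the start, and CCN2 holds it at 169 to 164, 104 to 99 and 95 to 90. Searched on both strands, GGAATG was present in 11.9% of the 27305 promoters of that table, in 9.5% of the 11717 matched to tested genes, in 9.81% of 2314 promoters of genes called lower, in 9.23% of 2048 of genes called higher and in 6 of 16 matched promoters of the target signature (37.5%). A match describes the letters in this window and is not a binding site.

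Upstream of TAZ, the Hippo kinases and their adaptors fell more often than they rose. Among 33 tested regulators, 18 fell and 5 rose, with a median log2 fold change of -0.17, and the 5 became 3 when any of siNT1, siNT2, siNT3, siTAZ1 or siTAZ2 was left out. Of the 18, 7 were among the 8 adaptors (median -0.47) and 6 among the 13 kinases, mostly of the upstream MAP4K and TAOK families. Of the core kinases, STK4 fell by only 0.09 on the log2 scale. STK3, LATS1 and LATS2 (listed with the targets) were not called. NF2 (merlin), the membrane adaptor that switches the kinases on, stood at 112, 109 and 113 CPM after siNT and 72.7, 76.1 and 75.7 after siTAZ (log2 -0.58, SE 0.05). FRMD6, a related FERM-domain adaptor, fell by 0.68 on the log2 scale, WWC2 by 0.66, the kinase adaptor MOB1A by 0.45 and the upstream kinase TAOK1 by 0.71. Both knockdowns lowered FRMD6 (log2 -0.68 after siTAZ and -0.75 after siYAP against the shared siNT libraries), and the difference was not called (log2 0.06, SE 0.03; edgeR, adjusted p = 0.069). TAOK1 moved in opposite directions, falling by 0.71 after siTAZ and rising by 0.39 after siYAP (siTAZ against siYAP, log2 -1.11, SE 0.04). STK38, a kinase of the LATS family, rose from 82.6, 83.1 and 92.7 CPM to 122, 123 and 123.

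Fibrillar collagens, the rope-forming collagens of scar tissue, rose as a group. All 8 tested chains were called higher, with a median log2 fold change of 0.77, and COL24A1 had too few counts to test. COL1A1 (chr17:50183289-50201632), the alpha-1 chain of type I collagen, stood at 4157, 4137 and 4211 CPM after siNT and 6247, 6221 and 6296 after siTAZ. Its partner chain COL1A2 (chr7:94394561-94431232) stood at 228, 201 and 210 CPM and at 581, 547 and 578. In both genes every siTAZ library lay above every siNT library (log2 0.59, SE 0.03, and 1.42, SE 0.04; edgeR, adjusted p = 7.57e-30 and 2.63e-33). COL3A1 rose by 0.83 on the log2 scale, COL5A1 by 0.70 and COL11A1, a nucleator of thin fibrils, by 1.53, from 14.2, 11.7 and 16.1 CPM to 39.8, 42.6 and 39.1.

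YAP knockdown gave other values for the same chains. COL1A1 was lower than siNT by 1.03 after siYAP on the log2 scale, COL3A1 by 0.64, COL5A1 by 0.20 and COL11A1 by 0.77, while COL1A2 was higher by 1.07. The difference between siTAZ and siYAP was called for each of these 5 genes, at a log2 difference of 1.61 (SE 0.03) for COL1A1, 1.48 (SE 0.03) for COL3A1, 0.91 (SE 0.03) for COL5A1, 2.30 (SE 0.11) for COL11A1 and 0.34 (SE 0.04) for COL1A2. Of the 8 chains, 7 differed between the knockdowns.

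Other collagens rose more often than they fell, with 10 of 17 higher and 4 lower (median 0.32). The 3 chains of type VI collagen, which forms beaded filaments around cells, all rose, COL6A1 by 0.61, COL6A2 by 0.46 and COL6A3 by 0.56 on the log2 scale. COL16A1, a fibril-associated collagen, rose from 62.9, 61.7 and 59.5 CPM to 126, 122 and 112, and COL4A1 of the basement membrane rose by 0.32. COL8A1, a short-chain network collagen, fell from 397, 401 and 386 CPM to 240, 244 and 254. COL12A1 fell by 0.47 and the transmembrane collagen COL13A1 by 0.61.

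Enzymes that fold, process and cross-link collagen moved partly with the chains. Of 28 tested, 17 rose and 4 fell (median 0.20). All 4 folding factors were higher, among them the collagen chaperone SERPINH1, which rose by 0.36 on the log2 scale. BMP1, which trims procollagen, rose from 220, 232 and 225 CPM to 341, 348 and 331, and the prolyl 3-hydroxylase P3H1 rose by 0.55. PLOD1, a lysyl hydroxylase of the helix, rose by 0.36 while PLOD2, which hydroxylates the telopeptides used for stiff cross-links, fell by 0.60, from 434, 430 and 412 CPM to 286, 275 and 279. The cross-linking oxidases were mixed, since LOX fell by 0.44 and LOXL4 by 1.09 while LOXL2 rose by 0.32. LOX was higher by 0.46 after siYAP, and the difference between the knockdowns was called (siTAZ against siYAP, log2 -0.89, SE 0.04).

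**Figure D3:**
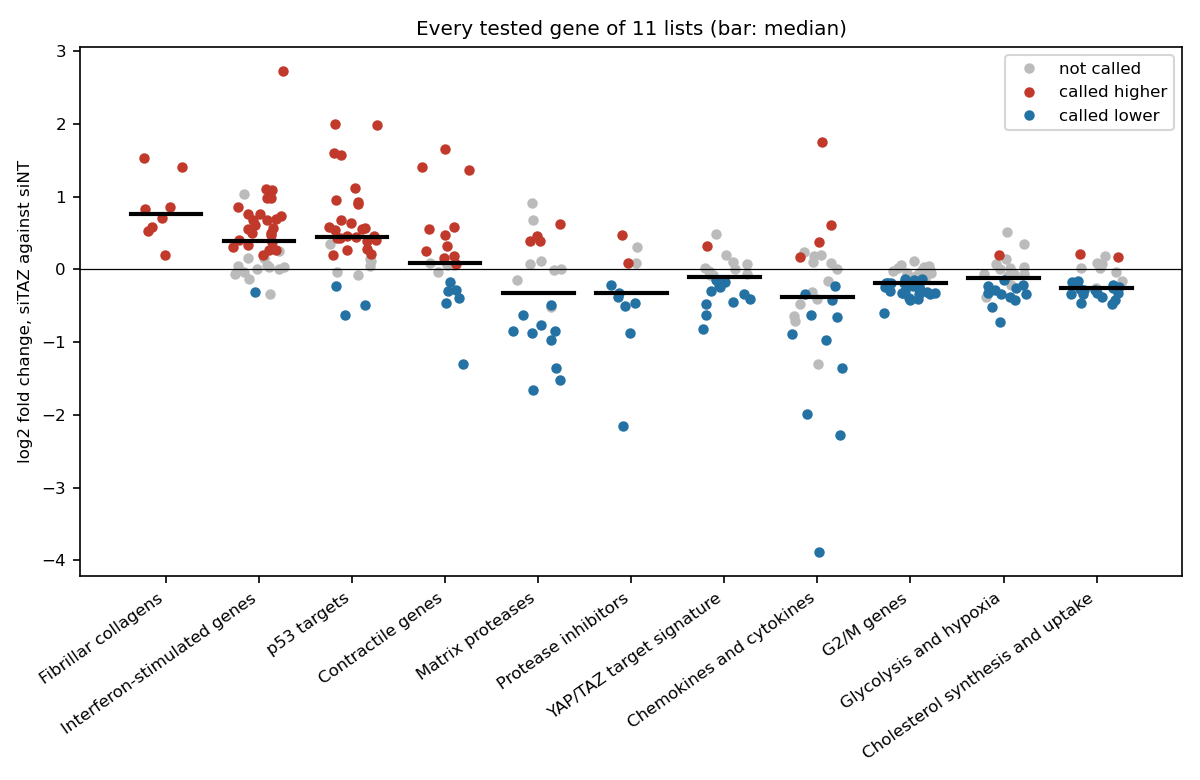
Log2 fold change of siTAZ against siNT for each tested gene of 11 gene lists, with genes called higher in red, called lower in blue and not called in grey; bars are list medians and the horizontal spread within a list carries no meaning. The bar lies at 0.77 for fibrillar collagens, 0.44 for p53 targets, 0.39 for interferon-stimulated genes and -0.37 for chemokines and cytokines.

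Non-collagen matrix genes changed in both directions, with 16 of 44 higher and 6 lower (median 0.10). VCAN, the large hyaluronan-binding proteoglycan versican, stood at 43.6, 37.9 and 41.3 CPM after siNT and 119, 111 and 108 after siTAZ (log2 1.46, SE 0.07). SPARC, a collagen-binding glycoprotein, rose by 0.46 on the log2 scale, the laminin chain LAMC1 by 0.36 and LAMA1 by 0.67. LAMB3, a chain of epithelial laminin, stood at 70.3, 66.3 and 67.6 CPM after siNT and 34.3, 33.5 and 31.7 after siTAZ, and it was higher by 2.86 after siYAP. FN1, fibronectin, was not called (log2 -0.09, SE 0.06; edgeR, adjusted p = 0.302).

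Matrix-degrading enzymes fell more often than they rose. Of 22 tested genes in the protease list, which includes the receptor PLAUR, 10 fell and 4 rose, with a median of -0.32. In the list 5 of 7 ADAMTS genes were lower, whereas of 12 metalloproteinases 3 rose and 3 fell (median 0.04). ADAMTS1, a secreted protease that cleaves versican and other proteoglycans, stood at 158, 149 and 159 CPM after siNT and 48.3, 49.1 and 50.1 after siTAZ (log2 -1.66, SE 0.05; edgeR, adjusted p = 6.78e-36). MMP1, the interstitial collagenase that cuts fibrillar collagen, stood at 86.9, 78.9 and 80.6 CPM after siNT and 31.1, 29 and 25.9 after siTAZ (log2 -1.52, SE 0.05). Neither gene's groups overlapped. ADAMTS6 fell by 0.87, ADAMTS12 by 0.84 and PLAUR, the urokinase receptor that focuses plasmin on the cell surface, by 0.84. MMP2, a gelatinase, rose from 118, 110 and 93.6 CPM to 168, 170 and 158, and its membrane activator MMP14 rose by 0.39. MMP3 stood at 0.27 to 1.10 CPM after siTAZ and 0.69 to 1.24 after siNT and was not called.

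MMP1 was 1 of the genes that TAZ and YAP knockdown moved in opposite directions, being higher than siNT by 3.14 on the log2 scale after siYAP (siTAZ against siYAP, log2 -4.65, SE 0.05; edgeR, adjusted p = 7.81e-62). PLAUR was higher by 1.89 after siYAP. ADAMTS1 was lower after both, by 1.66 after siTAZ and 1.79 after siYAP.

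Genes listed as protease inhibitors, a list not limited to inhibitors of the enzymes above, fell more often than they rose. Of 11 tested, 7 were lower and 2 higher (median -0.33). Among the 4 metalloproteinase inhibitors 3 fell and 1 rose, and among the 7 serpins 4 fell and 1 rose. The rise of TIMP2 was 0.08 on the log2 scale and was lost without siNT1, siNT3, siTAZ2 or siTAZ3. TIMP3, which stays bound to matrix, stood at 460, 419 and 427 CPM after siNT and 286, 307 and 334 after siTAZ. TIMP1 fell by 0.21 on the log2 scale, and the intracellular serpins SERPINB2 and SERPINB7 fell by 0.88 and 2.15. SERPINE2, a thrombin and urokinase inhibitor, rose by 0.48.

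Contractile genes split within the group. Of 21 tested, 11 rose and 6 fell, with a median of 0.09. ACTA2 (chr10:88935074-88991339), smooth muscle alpha-actin and the usual mark of the activated stellate cell, stood at 23.5, 20.8 and 23.1 CPM after siNT and 70.3, 73.5 and 69.3 after siTAZ (log2 1.66, SE 0.07; edgeR, adjusted p = 4.97e-29). The groups did not overlap, but 30.1% of the ACTA2 exon bases are shared with FAS and ACTA2-AS1 and the strand setting of the counts is unknown, so its reads are uncertain. FAS, a listed p53 target whose value was looked up after seeing this overlap, rose by 1.11. LMOD1, an actin nucleator of smooth muscle, rose by 1.41, the regulatory light chain MYL9 by 0.59, the actin-binding TAGLN by 0.48 and the tropomyosin TPM4 by 0.32. MYLK, the kinase that switches myosin on, fell by 0.46, calponin 3 (CNN3) by 0.29 and the filament protein VIM by 0.40.

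TAGLN and MYL9 were far lower after siYAP, by 2.80 and 1.81 on the log2 scale, where siTAZ raised both. The difference was called for each (siTAZ against siYAP, log2 3.28, SE 0.04, and 2.40, SE 0.03). ACTA2 rose after both knockdowns, by 0.65 after siYAP, and more after siTAZ (log2 difference 1.01, SE 0.07).

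TPM4 and MYLK went opposite ways after siTAZ although both promoters hold a CArG box, the element read by SRF. The windows of 250 bases are chr19:16067288-16067537 (TPM4, plus strand) and chr3:123620549-123620798 (MYLK, minus strand), with the box, CC then 6 of A or T then GG, in capitals.
TPM4: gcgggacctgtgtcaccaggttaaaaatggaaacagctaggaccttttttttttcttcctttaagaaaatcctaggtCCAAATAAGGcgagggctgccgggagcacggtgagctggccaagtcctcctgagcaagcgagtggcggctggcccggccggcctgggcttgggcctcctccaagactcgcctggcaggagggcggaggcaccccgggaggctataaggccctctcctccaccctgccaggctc
MYLK: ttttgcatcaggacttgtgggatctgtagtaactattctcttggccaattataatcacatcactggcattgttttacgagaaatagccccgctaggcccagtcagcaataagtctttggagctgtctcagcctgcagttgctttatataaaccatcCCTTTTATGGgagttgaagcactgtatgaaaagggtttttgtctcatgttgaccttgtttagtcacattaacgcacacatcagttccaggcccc
The box lies 173 to 164 bases before the start in TPM4 and 94 to 85 in MYLK. It was present in 1.14% of the 27305 promoters, in 1.04% of the 11717 matched to tested genes and in 5 of 18 matched contractile genes (27.8%). Promoters of genes called higher held it in 1.51% and of genes called lower in 1.17%. Among changes of more than 2-fold these were 6 of 104 (5.77%) and 2 of 184 (1.09%), a difference that was not tested.

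The factors that read this element moved little, except for MYOCD. Of 9 SRF and MRTF factors 3 fell and 2 rose (median 0.01), and neither rise was called without siNT1. MYOCD, myocardin, the smooth muscle coactivator of SRF, stood at 57.2, 50.7 and 50.6 CPM after siNT and 18.4, 16.3 and 21.9 after siTAZ (log2 -1.49, SE 0.11; edgeR, adjusted p = 2.58e-12). MYOCD fell while ACTA2, TAGLN and MYL9 rose. The LIM cofactors FHL1 and FHL2 fell by 0.22 and 0.24.

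Receptors for matrix shifted in composition. Among 30 focal adhesion genes 12 rose and 9 fell, and the 9 became 5 without siNT2, but among the 14 integrins 9 rose and 4 fell (median 0.29). ITGA1 and ITGA11, the alpha chains of collagen-binding integrins, rose from 68.6, 71.7 and 62.2 to 134, 123 and 133 CPM and from 64.8, 60.1 and 56.2 to 118, 109 and 120 CPM. ITGB3, the beta chain of vitronectin receptors, rose from 70.5, 58.2 and 62.3 to 132, 130 and 132 CPM. These 3 integrins were named for their small p, and in each the siTAZ libraries lay above the siNT libraries. FLNC, a filamin that cross-links actin, fell by 0.66 on the log2 scale.

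**Figure D4:**
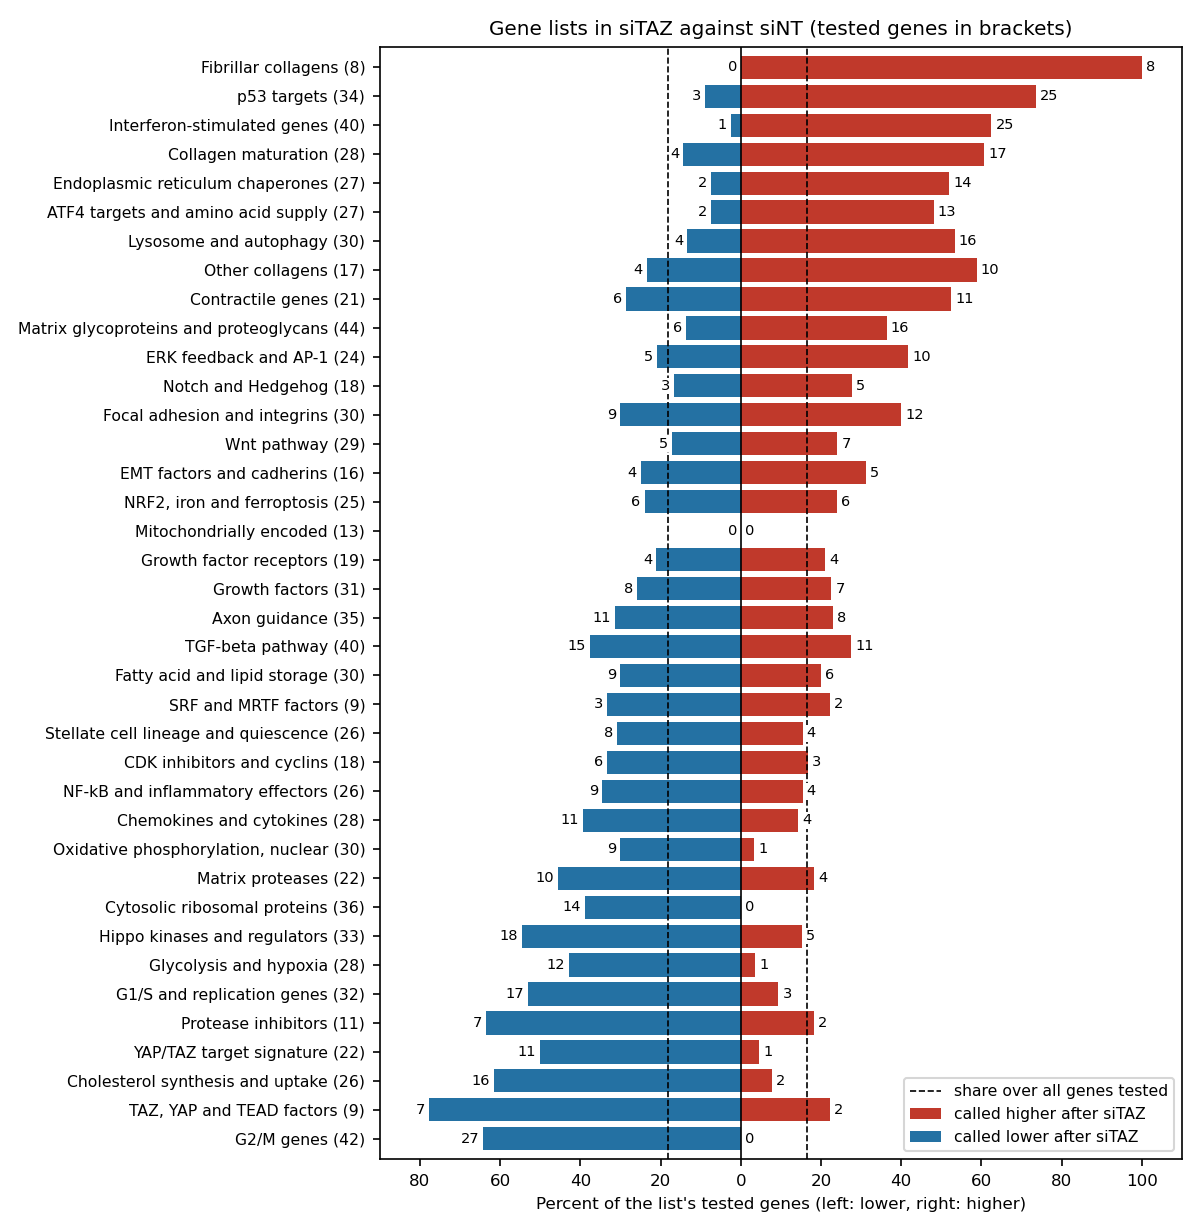
Share of each list's tested genes called higher (red, to the right) or lower (blue, to the left) after siTAZ, in percent, for lists with at least 8 tested genes; numbers beside bars are gene counts and dashed lines mark the shares over all genes tested, 16.4% higher and 18.2% lower. Fibrillar collagens (8 higher) stand at the top and G2/M genes (27 lower) at the bottom.

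Genes of the pathway of TGF-beta, the main fibrogenic cytokine of stellate cells, changed in both directions. In the 40-gene list 11 rose and 15 fell (median -0.02), and of 9 receptors 3 rose and 3 fell. TGFBR1 (chr9:99104038-99154192), the signalling receptor kinase, stood at 165, 175 and 168 CPM after siNT and 76.0, 73.3 and 70.9 after siTAZ (log2 -1.21, SE 0.04; edgeR, adjusted p = 2.17e-33). TGFBR2, the ligand-binding receptor, rose from 203, 192 and 198 to 274, 267 and 267 CPM. Neither receptor's groups overlapped. PMEPA1, a TGF-beta-induced feedback gene, rose by 1.09 on the log2 scale, the latent-complex protein LTBP2 by 0.82, and SMAD5, which carries BMP signals, fell by 0.67. Among secreted family members, myostatin (MSTN) fell by 1.02, GDF11 by 0.65 and the activin antagonist follistatin (FST) by 0.97. TGFBR1 was higher by 0.32 and TGFBR2 lower by 0.65 after siYAP, each the reverse of siTAZ (siTAZ against siYAP, log2 -1.53, SE 0.04, and 1.10, SE 0.04).

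Growth factors and their receptors changed gene by gene. Of 31 ligands and binding proteins 7 were higher (22.6%) and 8 lower (25.8%), and of 19 receptors 4 were higher and 4 lower (21.1% each). These shares lay near those over all tested genes, 16.4% higher and 18.2% lower. MET, the hepatocyte growth factor receptor, stood at 135, 137 and 147 CPM after siNT and 61.3, 60.7 and 56.6 after siTAZ (log2 -1.23, SE 0.05; edgeR, adjusted p = 2.24e-31). It was not called after siYAP (log2 -0.03), and the difference between knockdowns was (log2 -1.20, SE 0.05). The EGF receptor EGFR fell by 0.45, its ligand HBEGF by 1.03 and FGF5 by 1.56, whereas EGF rose by 1.19. VEGFC, the lymphatic growth factor, fell by 0.89 and VEGFA rose by 0.61. IGFBP5, a secreted binder of insulin-like growth factors, fell from 4448, 4209 and 4197 CPM to 2265, 2395 and 2459, while IGFBP7 rose by 0.98.

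Secreted inflammatory genes fell more often than they rose. Of 28 tested chemokines and cytokines, 11 fell and 4 rose, with a median log2 fold change of -0.37. The count filter used all 9 libraries, and 24 of the 28 were called higher after siYAP, so some could pass through the siYAP libraries. CCL20 stood at a log2 fold change of 0. For CSF3 and CXCL5, counted among the falls, the siTAZ and siNT libraries overlapped. The counts and the median include such genes. CXCL8 (chr4:73740506-73743716), the neutrophil attractant interleukin-8, stood at 37.4, 29.7 and 30.9 CPM after siNT and 8.93, 8.90 and 6.69 after siTAZ (log2 -1.99, SE 0.12; edgeR, adjusted p = 3.28e-07). CXCL1 fell by 0.89, interleukin-6 (IL6) by 0.65, IL11 by 0.62 and IL1B by 0.42. The rises included CCL5, from 1.83, 0.63 and 0.68 CPM to 3.36, 3.49 and 3.75, the macrophage factor CSF1, by 0.62, and the monocyte attractant CCL2, by 0.38. In the list of NF-kB genes and inflammatory effectors 9 of 26 were lower and 4 higher (median -0.13), and TNFAIP2, which had the smallest p among the falls, was lower by 0.82. Of the 9, 6 were among the 12 effectors and 3 among the 14 NF-kB genes. The complement proteases C1R and C1S rose by 0.58 and 0.47.

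YAP knockdown took the same cytokines the other way against the same siNT libraries. CXCL8 was higher by 5.31 after siYAP, CXCL1 by 4.86, IL1B by 3.54 and IL6 by 3.01 on the log2 scale, and siTAZ differed from siYAP by -7.30 (SE 0.10), -5.75 (SE 0.10), -3.96 (SE 0.05) and -3.66 (SE 0.10). CCL2, CCL5 and CSF1 rose after both, by 2.98, 5.48 and 2.39 after siYAP.

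The CXCL8 promoter is shown because CXCL8 was among the largest falls. The window is chr4:73740319-73740568 (plus strand), with the AP-1 element TGANTCA in capitals, which lies 137 to 131 bases before the start.
CXCL8: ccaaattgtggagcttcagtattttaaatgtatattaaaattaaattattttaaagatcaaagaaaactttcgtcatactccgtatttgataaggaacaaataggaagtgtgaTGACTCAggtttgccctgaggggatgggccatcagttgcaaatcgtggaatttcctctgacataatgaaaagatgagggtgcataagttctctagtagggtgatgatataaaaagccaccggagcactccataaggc
TGANTCA was present on either strand in 6.6% of the 27305 promoters, in 4.34% of the 11717 matched to tested genes, in 5.06% of genes called lower, in 4.59% of genes called higher and in 5 of 21 matched chemokine and cytokine promoters (23.8%). Of 8 AP-1 genes 4 rose and 2 fell, with JUNB higher by 0.68, JUND higher by 0.27 and JUN lower by 0.21.

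Interferon-stimulated genes rose more often than they fell. Of 40 tested, 25 were higher and 1 lower (2 without siTAZ1), with a median log2 fold change of 0.39. HLA-B (chr6:31269491-31357188), a class I heavy chain, stood at 893, 911 and 881 CPM after siNT and 1525, 1549 and 1487 after siTAZ (log2 0.76, SE 0.03; edgeR, adjusted p = 3.12e-32). HLA-C rose by 0.61, the shared light chain B2M by 0.51 and the peptide transporter subunit TAP1 by 0.69. The HLA genes are close copies, and how the counting divided reads between them is not known. TAP2, the other transporter subunit, fell from 113, 114 and 114 CPM to 93.7, 92.8 and 89.6. Among antiviral effectors, 14 of 24 rose. They include IFI44L, OAS1, IFI6 and TRIM22, named after their values were seen, whose log2 fold changes were 2.73, 0.99, 0.77 and 1.10.

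For the class I heavy chain HLA-B, the difference between the knockdowns was not called. It was higher by 0.76 after each, with a log2 difference of 0.00 (SE 0.03; edgeR, adjusted p = 0.961). The siNT libraries are shared by these values. TAP1 differed, at 0.69 after siTAZ and -0.06 after siYAP (log2 difference 0.75, SE 0.06).

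B2M rose and TAP2 fell, and both promoters hold the core of the interferon response element, GAAA, any 2 bases and GAAA. The windows are chr15:44711267-44711516 (B2M, plus strand) and chr6:32838740-32838989 (TAP2, minus strand), with matches in capitals.
B2M: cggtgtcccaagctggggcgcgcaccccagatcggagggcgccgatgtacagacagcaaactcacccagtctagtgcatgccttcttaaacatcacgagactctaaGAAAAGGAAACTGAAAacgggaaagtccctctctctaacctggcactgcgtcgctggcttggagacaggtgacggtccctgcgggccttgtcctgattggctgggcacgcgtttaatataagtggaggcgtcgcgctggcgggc
TAP2: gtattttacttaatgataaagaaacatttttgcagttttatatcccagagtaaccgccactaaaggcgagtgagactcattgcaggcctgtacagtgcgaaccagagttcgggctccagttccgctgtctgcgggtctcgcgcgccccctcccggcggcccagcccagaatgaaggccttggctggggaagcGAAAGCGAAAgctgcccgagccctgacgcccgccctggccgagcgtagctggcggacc
B2M holds 2 overlapping matches, at 144 to 135 and 138 to 129 bases before the start, and TAP2 holds 1 at 58 to 49. The element was found on either strand in 3.07% of the 27305 promoters, in 2.51% of the 11717 matched to tested genes, in 2.83% of genes called higher, in 2.72% of genes called lower and in 17 of 30 matched interferon-stimulated genes (56.7%).

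Genes of the p53 response rose more often than they fell. Of 34 targets, 25 rose and 3 fell, with a median of 0.44. CDKN1A (p21), which blocks cyclin-dependent kinases, stood at 52.9, 55.6 and 50.6 CPM after siNT and 155, 170 and 147 after siTAZ (log2 1.57, SE 0.05; edgeR, adjusted p = 5.51e-19). BTG2, an antiproliferative gene, rose from 5.19, 5.06 and 4.02 to 14.4, 15 and 14 CPM, and SPATA18, a mitochondrial quality control gene, from 1.77, 1.27 and 1.70 to 6.17, 6.77 and 5.88. BTG2 and SPATA18 were named for their small p, and in all 3 genes the siTAZ libraries lay above the siNT libraries. The stress sensor SESN2 rose by 0.93, the cyclin CCNG1 by 0.55 and MDM2, which degrades p53, by 0.55, while the death receptor TNFRSF10B fell by 0.63 and the kinase PLK2 by 0.49. CDKN1A was higher by 4.33 after siYAP, and the difference was called (siTAZ against siYAP, log2 -2.76, SE 0.05).

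Proliferation genes fell more often than they rose, by small amounts. Of 42 G2/M genes, 27 fell and 0 rose by edgeR, DESeq2 or limma-voom (0 at an unadjusted p under 0.05; median -0.19). Of 32 G1/S genes 17 fell and 3 rose (median -0.18). MKI67, the Ki-67 proliferation antigen, stood at 405, 406 and 358 CPM after siNT and 321, 311 and 296 after siTAZ (log2 -0.33, SE 0.04). ANLN, the cytokinesis scaffold anillin, fell by 0.59, the condensin subunit SMC4 by 0.42, the ribonucleotide reductase subunits RRM1 and RRM2 by 0.55 and 0.37, and MCM2 of the replication helicase by 0.33. All 42 G2/M genes were lower after siYAP, and each of the 42 differed between the knockdowns. Among D cyclins, which drive entry into the cycle, CCND1 fell from 431, 408 and 414 to 318, 318 and 322 CPM and CCND2 rose from 5.13, 5.64 and 6.17 to 12.6, 10.9 and 11.4. The inhibitors CDKN2B and CDKN2A fell by 0.63 and 0.27.

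**Figure D5:**
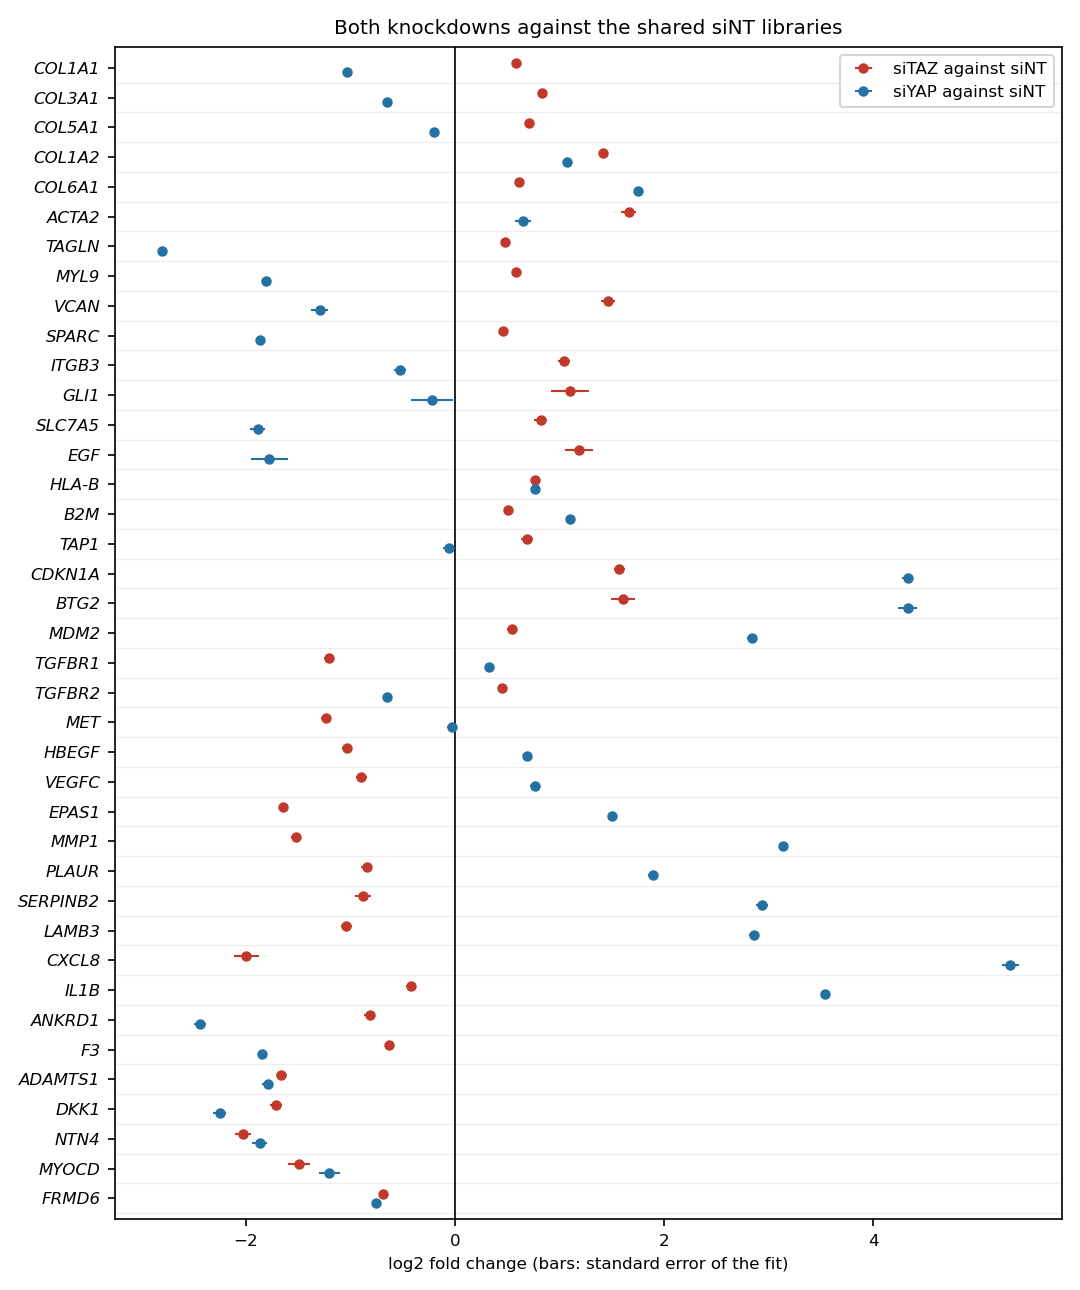
Log2 fold changes with standard errors for 39 genes after siTAZ (red) and siYAP (blue), each against the same siNT libraries. TAGLN stands at 0.48 and -2.80, CXCL8 at -1.99 and 5.31, HLA-B at 0.76 and 0.76, and ADAMTS1 at -1.66 and -1.79.

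Developmental pathways gave smaller groups. Some Hedgehog readouts rose, with GLI1, the pathway's transcription factor and target, at 3.60, 3.97 and 4.64 CPM after siNT and 8.66, 10.1 and 7.5 after siTAZ, GLI2 higher by 0.54 and the receptor PTCH1 by 0.52 on the log2 scale. These were the 3 genes called among 7 tested Hedgehog genes. In the 29-gene Wnt list 7 rose (24.1%) and 5 fell (17.2%), near the 16.4% and 18.2% over all tested genes. The receptor genes FZD6 and LRP5 rose by 0.56 and 0.42 on the log2 scale. DKK1, a secreted Wnt antagonist, stood at 149, 142 and 142 CPM after siNT and 46.1, 42.0 and 44.2 after siTAZ, and the ligand WNT5B fell by 0.90. Of 12 semaphorins, guidance cues first known from axons, 6 fell and 2 rose. SEMA3E fell from 20.3, 23.2 and 21.5 CPM to 3.63, 3.17 and 3.52, and SEMA3C by 0.95. NTN4, a netrin of basement membranes, fell from 77.6, 83.1 and 73.3 CPM to 19.8, 20.3 and 17.5. SEMA3E, NTN4 and DKK1 were also lower after siYAP, by 4.77, 1.86 and 2.25, whereas SEMA3C was higher by 0.53.

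Genes of cholesterol synthesis and of glycolysis fell more often than they rose. In cholesterol synthesis and uptake 16 of 26 genes fell and 2 rose (median -0.25), among them HMGCS1, at the entry to the pathway, lower by 0.38 on the log2 scale, and DHCR7, which acts at the last step, lower by 0.43. SCD, which makes monounsaturated fatty acids, stood at 491, 497 and 464 CPM after siNT and 295, 294 and 291 after siTAZ. Of 19 glycolysis genes 9 fell, with LDHA going from 543, 527 and 536 to 401, 397 and 408 CPM, and ENO1 and TPI1 lower by 0.38 and 0.33. EPAS1, which encodes the hypoxia factor HIF-2alpha, fell from 382, 393 and 378 CPM to 127, 130 and 113 and was higher by 1.5 on the log2 scale after siYAP. Of the 13 mitochondrially encoded genes 0 were called by edgeR, DESeq2 or limma-voom (0 at an unadjusted p under 0.05 in edgeR; median 0.05). With the siNT and siTAZ libraries fitted alone 3 were called higher and 1 lower, and without siYAP1 2 were higher and 1 lower. Of 36 cytosolic ribosomal protein genes 14 fell (median -0.07), but 7 fell without siTAZ1 and 8 without siNT3.

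Secretory and lysosomal genes rose more often than they fell, by small amounts. Of 27 endoplasmic reticulum chaperone and secretion genes 14 rose and 2 fell (median 0.10), with DNAJB9 higher by 0.60 and the disulfide isomerase PDIA3 by 0.22. Of 27 ATF4 targets and amino acid supply genes 13 rose and 2 fell (median 0.12), and the 2 became 4 without siNT3 and 1 without siNT1, siTAZ1 or siTAZ2. SLC7A5 and SLC3A2, the light and heavy chains of a large neutral amino acid transporter, rose from 136, 148 and 134 to 224, 261 and 255 CPM and from 152, 157 and 163 to 229, 242 and 220 CPM. After siYAP SLC7A5 was lower by 1.88 and SLC3A2 higher by 1.05. Of 30 lysosome and autophagy genes 16 rose and 4 fell (median 0.18), with the protease CTSD higher by 0.51 and the membrane protein LAMP1 by 0.41. TXNRD1, a thioredoxin reductase of the NRF2 response, fell from 453, 444 and 452 CPM to 291, 298 and 293.

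In the list of stellate lineage and quiescence genes 8 of 26 were lower (30.8%) and 4 higher (15.4%), with a median of -0.23. Over all tested genes 18.2% were lower and 16.4% higher. The falls lay mostly among the lineage genes, of which 6 of 16 were lower and 1 higher. Of 10 retinoid genes 3 rose and 2 fell. NR2F2, a nuclear receptor of the stellate lineage, stood at 552, 522 and 550 CPM after siNT and 378, 380 and 386 after siTAZ. NGFR, the low-affinity nerve growth factor receptor, fell by 1.37 on the log2 scale. DHRS3, a retinaldehyde reductase, rose from 2, 2.47 and 1.81 CPM to 4.22, 6.44 and 7.73. CDH2 (N-cadherin) and CDH13 rose by 0.44 and 0.68, and the tight junction gene CLDN11 fell by 0.69.

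Several of the largest changes lay outside these groups. PTX3, a secreted pattern recognition protein, stood at 215, 197 and 199 CPM after siNT and 55.6, 54.8 and 51.4 after siTAZ, and NEK7, a kinase needed by the NLRP3 inflammasome, at 269, 251 and 257 and at 74.8, 77.4 and 81.8. The deubiquitinase USP46 fell by 1.59 on the log2 scale and EEF1A2, a tissue-restricted elongation factor, by 1.98. Among the rises, NPTX1 went from 4.60, 2.82 and 2.21 CPM to 20.5, 18.4 and 17.4, the tetraspanin TSPAN2 from 7.25, 7.83 and 6.96 to 23.0, 29.3 and 29 and RARRES2, the adipokine chemerin, from 8.43, 6.21 and 6.45 to 20.7, 17.6 and 22.7. The rule that named these 7 genes required siTAZ and siNT libraries that did not overlap, as held in 44.6% of all tested genes. The difference between the knockdowns was not called for NPTX1 (siTAZ against siYAP, log2 0.23, SE 0.12; edgeR, adjusted p = 0.0986) or NTN4 (log2 -0.16, SE 0.08; edgeR, adjusted p = 0.0926).

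The widest contrasts with YAP knockdown, among genes that moved in opposite directions, were found by ranking siTAZ against siYAP. On the higher side were TLL1, a procollagen-processing protease, the cytosolic isocitrate dehydrogenase IDH1, the muscarinic receptor CHRM2, the teneurin TENM2 and the annexin ANXA3, at log2 differences of 4.78, 3.63, 3.58, 3.48 and 3.29. Their rises over siNT were small, between 0.21 for TLL1 and 0.50 for CHRM2, and the rise of TLL1 was not called by DESeq2 or without siNT2, siTAZ1 or siTAZ3. On the lower side were HSD11B1, which activates glucocorticoids, CXCL8, the cytokine CSF2, SERPINB7 and CXCL1. HSD11B1 and CSF2 stood at 0.29 to 0.45 and 1.47 to 2.59 CPM after siNT. Both reached the required average log2 CPM of 3 over the 9 libraries only through the siYAP libraries, which also enter the ranking. HSD11B1 was at or under the level of 3 counts in 3 of 3 siTAZ libraries, so its fall is not given as a fold.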

How the data were processed

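Deposited values were raw read counts per Ensembl gene, 1 table per library. Per the submitters' processing notes, the authors used HTSeq and STAR 2.5.0c, beside Picard, SAMtools and Trim Galore. The sources used here give no settings, annotation release or strand setting. The build named there is mm10, a mouse build, whereas the gene IDs are human. Reads in no annotated gene (4.73% to 5.63% of counted reads in siNT and siTAZ) stayed out of library sizes.

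Fits used edgeR 4.0.16 in R 4.3.3 (filterByExpr, minimum count 10 and minimum total 15; TMM; robust quasi-likelihood fit over all 9 libraries, so that groups share 1 estimate of spread; two-sided tests, Benjamini-Hochberg adjustment over 15560 genes, calls under 0.05). The filter also ran over all 9 libraries, so a gene could pass it through the siYAP libraries. With the siNT and siTAZ libraries alone, 14717 genes were tested. A level of 3 counts equals 0.162 to 0.177 CPM in the 6 siNT and siTAZ libraries and covers counting error only. Coordinates and overlaps come from GENCODE 29 on GRCh38. Promoters are RefSeq's on GRCh38.p14, and 11717 of the 15560 tested genes matched.

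The 44 gene lists hold 1109 genes, 1004 of them tested and 1 (GPX1) without an ID. Genes named were WWTR1, YAP1 and the TEADs; a panel of 28; the 15 largest rises and 15 largest falls among called genes whose log2 CPM averaged 3 or more and whose libraries did not overlap; up to 5 called genes per list with the smallest p in its main direction and 3 in the other; and the 10 widest opposite contrasts with siYAP. Some genes that this rule names are not reported here. Members, lists and rules were chosen with earlier results of these data known. The alternatives tried were scaling by upper quartile or RLE, no filter or CPM of at least 1 in 3 libraries, a replicate block, the compared groups alone, DESeq2 1.42.0, limma-voom (limma 3.58.1), adjusted p under 0.01, edgeR's test against a fold of 1.5, and each library left out in turn.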

Additional observations from a re-analysis of the deposited data

Results flagged for a closer look

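Reads that fell in no annotated gene, which the comparisons did not use, took 5.57% ± 0.05 (SD, n = 3) of counted reads in the siTAZ libraries and 4.93% ± 0.20 (SD, n = 3) in the siNT libraries, and every siTAZ library lay above every siNT library (two-sided exact permutation test, p = 0.1, the smallest that 3 libraries against 3 can give). In the siYAP libraries the share was 6.68% ± 0.75 (SD, n = 3). The part of these reads in the results was not tested.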

How the results depend on the processing

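The counts of genes called stayed within 1.5 times the reported ones under each alternative except edgeR's test against a fold of 1.5, which left 342 genes for siTAZ against siNT (115 higher, 227 lower), 3633 for siTAZ against siYAP and 3852 for siYAP against siNT. Leaving out each library in turn gave 4576 to 5521 genes called for siTAZ against siNT (2119 to 2619 higher, 2457 to 2902 lower), 9832 to 10408 for siTAZ against siYAP, 9995 to 10655 for siYAP against siNT, and a WWTR1 log2 fold change of -2.77 to -2.63. Upper-quartile scaling moved the share of higher calls from 47.5% to 52.3%. Deviations of same-numbered siNT and siTAZ libraries correlated little (r = -0.00466, -0.00989 and 0.0254). For siYAP with siTAZ r was 0.0545, 0.0158 and -0.00507, and for siNT with siYAP 0.013, 0.0434 and 0.0222. What the numbers stand for is not given by the labels, and a shared batch was not tested. A replicate block gave 5413 calls. Of the 313 named genes, 0 reversed under any alternative run. Against a fold of 1.5, 224 genes called in the main fit lost their call, the fold test being stricter by construction. That test kept 5 of 8 fibrillar collagens, 7 of 25 p53 targets, 5 of 25 interferon-stimulated genes and 7 of 10 lowered genes of the protease list. It kept 0 of 27 lowered G2/M genes, 0 of 16 lowered cholesterol genes and 0 of 16 raised lysosome genes. At 3 libraries a group and these depths, genes near 3 counts, such as HSD11B1, have poorly determined changes.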
